A study of Mus musculus with 12 samples.

Results

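The Toll-like receptors (TLRs) and the proteins that carry their signal were followed by RNA-seq in ATDC5 cells, a chondrogenic line that the labels class as mouse teratocarcinoma cells. The genes were taken by symbol from the deposited table and are 10 of its 46731 genes. They comprise the receptors *Tlr1*, *Tlr2*, *Tlr3*, *Tlr4* and *Tlr6*, the co-receptor *Cd14*, the adaptors *Myd88* and *Ticam1*, the ubiquitin ligase *Traf6* and the kinase *Ikbke*. All 10 were found, and 7 passed the filter on low values, an FPKM (fragments scaled by gene length and library) of at least 1 in at least 3 libraries. *Tlr1*, *Tlr6* and *Ikbke* did not, and they are described by their fragments.

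TLRs recognize microbial molecules and products of damaged tissue. TLR2 works in pairs with TLR1 or TLR6 on lipoproteins, TLR3 binds double-stranded RNA in endosomes, and TLR4 binds lipopolysaccharide with the help of CD14 and MD-2. MyD88 relays the signal of all of these receptors except TLR3 and also that of the interleukin-1 receptor. TRIF, the product of *Ticam1*, serves TLR3 and TLR4. TRAF6 carries the MyD88 signal towards NF-κB, and IKKε, the product of *Ikbke*, acts beside TBK1 towards the interferon regulatory factors. In cartilage this family is studied as a way in which chondrocytes sense matrix fragments.

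There were 4 groups of 3 libraries. Cells of the shRNA-NC line carried a lentiviral control hairpin and are labelled wildtype, and cells of the shRNA-*Ddx5* line carried a hairpin against *Ddx5*, an RNA helicase. Both were stable lines made with a lentivirus that holds a puromycin resistance gene, and whether each was 1 clone or a pool was not given in the sources used here. Each line was kept without stimulation, here called medium, or given IL-1β (5 ng/ml) together with TNF-α (25 ng/ml), here called cytokines, and the time given is 6 h for all 4 groups. A single hairpin and a single control line were sequenced, so the knockdown and any other difference between the lines cannot be told apart.

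The libraries held 14119199 to 19276520 fragments on genes. *Ddx5* was at 294 to 337 FPKM in the shRNA-NC cells and at 90.7 to 118 FPKM in the shRNA-*Ddx5* cells, with a mean of 32.3% of control in medium and 32.1% with cytokines. The cells were checked against marker lists. Of 9 cartilage markers, *Sox9* was at a mean of 27.5 FPKM in shRNA-NC cells in medium, while *Acan* had 18 fragments in all 12 libraries together, and the summed list ran from 39.1 to 44.3 FPKM in shRNA-NC medium, 26.3 to 30.2 in shRNA-*Ddx5* medium, 12.9 to 18.0 in shRNA-NC cytokines and 7.23 to 7.99 in shRNA-*Ddx5* cytokines. In medium the mean of *Col2a1* was 12.4 FPKM in shRNA-NC and 0.899 in shRNA-*Ddx5* cells, beside 27.5 and 24.1 for *Sox9*. Others of the list were higher in the knockdown cells there: *Sox6* (0.171 and 0.914), *Col9a1* (0 and 0.207) and *Hapln1* (0 and 0.110). The part of the cartilage list in the results was not tested. The 5 mesenchymal markers summed to 2112 to 2634 FPKM in shRNA-NC medium, 3073 to 3264 in shRNA-*Ddx5* medium, 1413 to 1602 in shRNA-NC cytokines and 2065 to 2336 in shRNA-*Ddx5* cytokines. The sum of the knockdown line lay higher in each medium, with the largest rise in *Col1a2* (control and knockdown means of 499 and 1738 FPKM in medium, 319 and 1321 with cytokines). *Col1a1* was higher too, and so was *Pdgfrb* with cytokines (15.9 and 41.8). In medium the ranges of *Pdgfrb* overlapped (27.9 to 32.9 and 32.7 to 36.4). *Vim* was lower (1641 and 1221 in medium, 1094 and 685 with cytokines), as was *Prrx1* in medium (100 and 59.8). With cytokines the ranges of *Prrx1* overlapped (78.4 to 87.2 and 71.0 to 79.8). The part of this list was not tested either. The 4 endothelial markers summed to at most 0.151 FPKM in any library.

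Several genes of the family are known best from macrophages, so 10 markers of myeloid and other leukocytes were summed. Their sum was 1.32 to 2.13 FPKM in shRNA-NC medium, 2.25 to 3.17 in shRNA-*Ddx5* medium, 1.70 to 2.41 in shRNA-NC cytokines and 2.58 to 2.79 in shRNA-*Ddx5* cytokines. In each medium every knockdown library lay above every control library, and the part of this list in the results was not tested. The defining markers *Ptprc* (CD45) and *Tyrobp* had no fragment in any library, and *Adgre1* and *Itgam* had 1 fragment each over all 12 libraries. Others were higher in the knockdown line: the mean of *Lyz2* was 0.0518 and 0.934 FPKM in the control and knockdown lines in medium and 0.0504 and 0.569 with cytokines, that of *Csf1r* was 0.0887 and 0.381 in medium and 0.0327 and 0.267 with cytokines, and that of *Laptm5* was 0.0295 and 0.119 in medium and 0.0147 and 0.0685 with cytokines. These 3 had 87, 155 and 29 fragments over all 12 libraries. *Fcer1g* and *Aif1*, with 19 and 20 fragments, did not keep to this direction. The mean of *Fcer1g* was lower in the knockdown line in medium (0.174 and 0.0308 FPKM) and higher with cytokines. That of *Aif1* was higher in medium (0.0157 and 0.144) and nearly equal with cytokines (0.104 and 0.102). The only marker of the list to pass the filter was *Cd68*, at means of 1.42, 1.10, 1.76 and 1.40 FPKM in the order of the groups above. The mean of *Cd68* was lower in the knockdown line in each medium, with overlapping ranges. In bulk libraries, fewer cells that express a gene and less RNA per cell cannot be told apart, and this holds for every level below.

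Levels are FPKM, per length, and can be compared between genes. Differences are on the scale of log2(FPKM + 1), which shrinks the differences of genes of low FPKM. They were tested with limma in 1 fit of the 12 libraries over 12368 genes, and a difference passed the threshold at a Benjamini-Hochberg adjusted p under 0.05. The interaction is the difference made by the cytokines in shRNA-*Ddx5* cells minus that in shRNA-NC cells. The 4 comparisons of 2 groups share groups with each other, so their counts are not independent.

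Of the 7 tested genes, the cytokines raised *Tlr2*, *Cd14* and *Myd88* and lowered *Tlr4* and *Ticam1* in shRNA-NC cells. In shRNA-*Ddx5* cells they raised *Tlr2*, *Tlr3*, *Cd14* and *Myd88* and lowered none past the threshold. The knockdown raised *Myd88* alone past the threshold in medium. With cytokines it raised *Tlr2*, *Tlr3*, *Tlr4*, *Cd14* and *Myd88* and lowered *Traf6*. The interaction passed the threshold for *Tlr2* and *Tlr4*.

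These counts are read against those of all genes. Past the threshold were 5 of 7 for the cytokines in shRNA-NC cells, beside 33.8% of all tested genes (18.6% higher and 15.2% lower). In shRNA-*Ddx5* cells it was 4 of 7, beside 27% (13.5% higher and 13.5% lower). For the knockdown it was 1 of 7 in medium, beside 47% (25.3% higher and 21.7% lower), and 6 of 7 with cytokines, beside 45.6% (23.5% higher and 22.1% lower). For the interaction it was 2 of 7, beside 8.21% (3.46% higher and 4.75% lower). The median log2 difference of the 7 genes was 0.33, 0.79, 0.01, 0.47 and 0.26 in that order, beside 0.02, 0.00, 0.03, 0.01 and -0.01 for all tested genes. The family was not tested against other genes.

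**Figure D1:**
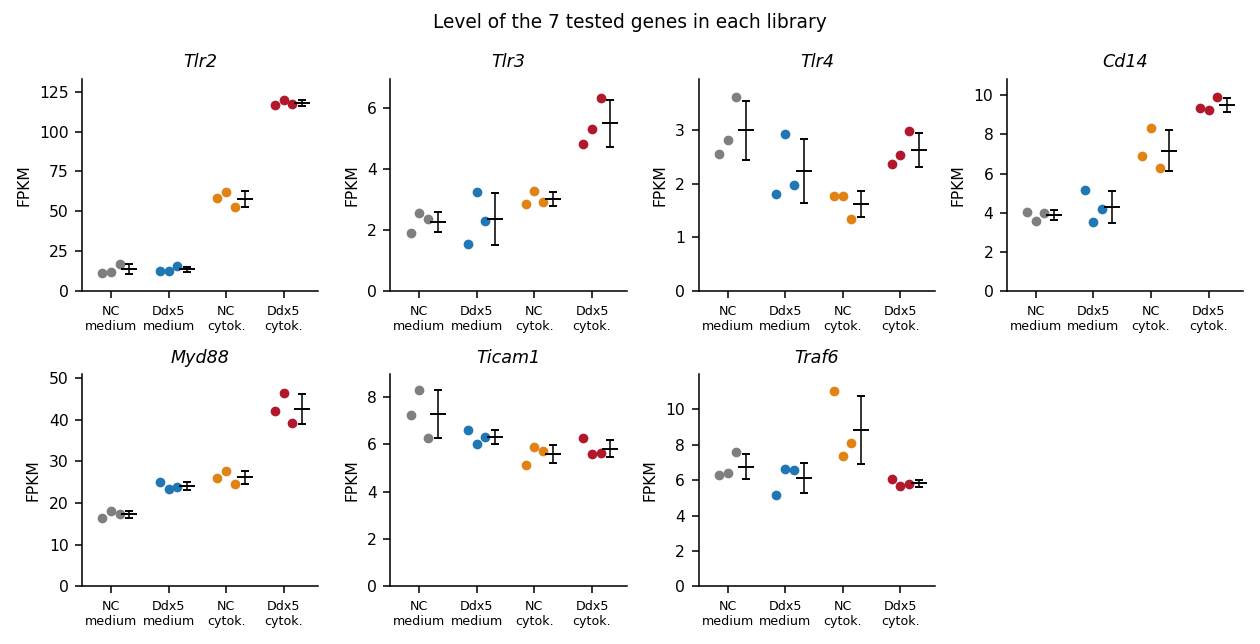
FPKM (y axis, from 0) of the 7 tested genes in each of the 12 libraries (points, 3 per group), with the mean and SD of each group in black. Tlr2 sits between 52.4 and 62.3 in the shRNA-NC and between 117 and 120 in the shRNA-Ddx5 libraries with cytokines, against 11.5 to 17.2 in all 6 libraries in medium.

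*Tlr2* had the largest differences of the 7 tested genes in each comparison that involves the cytokines. Its 3 libraries were at 11.5, 12.2 and 17.2 FPKM in shRNA-NC medium and at 12.4, 12.6 and 15.6 in shRNA-*Ddx5* medium. With cytokines they were at 58.5, 62.3 and 52.4 FPKM in shRNA-NC cells and at 117, 120 and 117 in shRNA-*Ddx5* cells. The groups in medium overlapped, every library with cytokines lay above every library in medium, and the knockdown libraries with cytokines lay above all others. The mean rose 4.24-fold with cytokines in shRNA-NC cells (log2 difference 2.02 ± 0.14 SE, limma adjusted p = 1.0e-06) and 8.70-fold in shRNA-*Ddx5* cells (3.04 ± 0.14, limma adjusted p = 2.6e-08). The knockdown made a difference of 0.01 in medium, with a 95% confidence interval from -0.29 to 0.31 (limma adjusted p = 0.97), and of 1.02 ± 0.14 with cytokines, a 2.04-fold higher mean (limma adjusted p = 0.00013). The interaction was 1.01 ± 0.19 (limma adjusted p = 0.0087), and it stayed past the threshold in all 20 alternative settings, with adjusted p from 0.0062 to 0.028.

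*Tlr2* (gene 24088) lies on the minus strand at chr3:83743579-83749045 in GRCm39. Its upstream stretch is shown because it holds the NF-κB binding motif and because *Tlr2* is the gene that moved most. The 91 bases at chr3:83749075-83749165, minus strand, run from 250 to 160 bases before the RefSeq start and overlap no exon of the GENCODE annotation. The sequence comes from RefSeq (GRCm38.p6) and was placed in GRCm39 by an exact match, and capitals mark the match to the κB consensus.
Tlr2 upstream: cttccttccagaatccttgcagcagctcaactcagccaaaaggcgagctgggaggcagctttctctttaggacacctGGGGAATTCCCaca
The 11 capitals hold 2 overlapping matches, GGGGAATTCC and GGGAATTCCC. A κB match on either strand occurs in 7.25% of the 32851 upstream windows of 250 bases in the table, and it is a description of the letters, not a binding site shown by these data.

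The partners of TLR2 were near the limit of detection. *Tlr1* (gene 21897, chr5:65082023-65090945, minus strand) had 5, 15 and 2 fragments in shRNA-NC medium, 4, 11 and 10 in shRNA-*Ddx5* medium, none in the 3 shRNA-NC cytokines libraries, and 1, 4 and 4 in shRNA-*Ddx5* cytokines. None in 3 libraries allows up to 3 fragments, by counting error only. *Tlr6* (gene 21899, chr5:65109379-65128387, minus strand) had 4, 2 and 5 fragments in shRNA-NC medium, 0, 10 and 9 in shRNA-*Ddx5* medium, 3, 0 and 0 in shRNA-NC cytokines, and 3, 4 and 3 in shRNA-*Ddx5* cytokines. For both genes the highest library was in medium and the lowest group was shRNA-NC with cytokines, while *Tlr2* was highest with cytokines. In per-length terms, the highest group mean was 0.144 FPKM for *Tlr1* and 0.0778 FPKM for *Tlr6*, against 13.6 FPKM for *Tlr2* in the same shRNA-*Ddx5* medium group. *Tlr6* shares 970 bases with *Fam114a1* on the other strand, which had 9941 fragments, and since a strand setting was not given in the sources used here, reads in the shared stretch cannot be assigned with certainty.

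**Figure D2:**
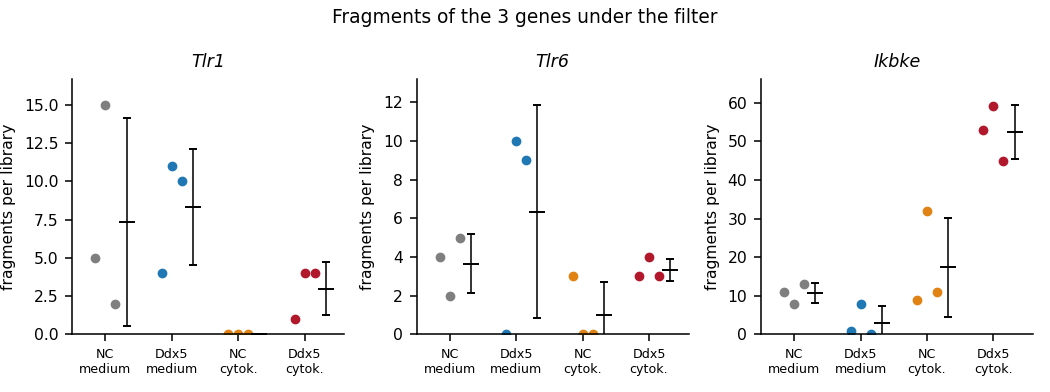
Fragments per library (y axis, from 0) of the 3 genes that did not pass the filter, as points for each of the 12 libraries, with the mean and SD of each group in black. Ikbke has 45 to 59 fragments in the shRNA-Ddx5 libraries with cytokines and at most 32 in any other, while Tlr1 and Tlr6 stay at or under 15.

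*Tlr3*, the endosomal receptor for double-stranded RNA, was at 1.89, 2.54 and 2.37 FPKM in shRNA-NC medium and at 1.55, 3.24 and 2.28 in shRNA-*Ddx5* medium. With cytokines it was at 2.86, 3.27 and 2.92 FPKM in shRNA-NC cells and at 4.83, 5.31 and 6.31 in shRNA-*Ddx5* cells. The knockdown libraries with cytokines lay above all others. The shRNA-NC libraries with cytokines lay above those in medium, and the shRNA-*Ddx5* medium libraries overlapped both of these groups. The cytokines raised it by 0.97 ± 0.16 in shRNA-*Ddx5* cells, 2.33-fold in the means (limma adjusted p = 0.0010). In shRNA-NC cells the difference was 0.30, with an interval from -0.06 to 0.66 (limma adjusted p = 0.18). With cytokines the knockdown raised *Tlr3* by 0.69 ± 0.16 (limma adjusted p = 0.0055), and in medium the difference was 0.01, with an interval from -0.35 to 0.37. The interaction was 0.67 ± 0.23 and missed the threshold (limma adjusted p = 0.10), so the 2 cytokine differences were not shown to differ. It passed with 1 library left out, shRNA-*Ddx5* medium replicate 2, the highest of its group (limma adjusted p = 0.024, in a range of 0.024 to 0.23 over 20 alternatives).

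*Tlr3* (gene 142980) lies on the minus strand at chr8:45848702-45864112 in GRCm39. The other κB match found upstream of the family was here, and it is shown for comparison with that of *Tlr2*. The 30 bases at chr8:45863609-45863638 run from 221 to 192 bases before the RefSeq start, but lie in an annotated *Tlr3* exon and in one of *Gm45542* in GENCODE. Capitals mark the match to the κB consensus.
Tlr3 upstream: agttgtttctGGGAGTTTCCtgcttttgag

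*Tlr4* was the only one of the 3 tested receptors lowered by the cytokines. Its libraries were at 2.55, 2.81 and 3.62 FPKM in shRNA-NC medium and at 1.77, 1.76 and 1.34 in shRNA-NC cytokines, with no overlap. The mean with cytokines was 54.3% of that in medium (log2 difference -0.60 ± 0.14, limma adjusted p = 0.0084). In shRNA-*Ddx5* cells the libraries were at 1.81, 2.92 and 1.98 FPKM in medium and at 2.37, 2.54 and 2.98 with cytokines. These overlapped, and the difference was 0.18, with an interval from -0.14 to 0.50 (limma adjusted p = 0.40).

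With cytokines *Tlr4* was higher in the knockdown cells, without overlap, by 0.47 ± 0.14 (limma adjusted p = 0.021). This call was lost without shRNA-NC cytokines replicate 3 (0.39, limma adjusted p = 0.080) and without shRNA-*Ddx5* cytokines replicate 3 (0.40, limma adjusted p = 0.079), and in the fit with no filter on low values (limma adjusted p = 0.054), in a range of 0.0093 to 0.080. In medium the knockdown difference was -0.31, with an interval from -0.63 to 0.01 (limma adjusted p = 0.10), and it passed only without shRNA-*Ddx5* medium replicate 2 (-0.46, limma adjusted p = 0.019). The interaction was 0.78 ± 0.20 (limma adjusted p = 0.040). It remained past the threshold in 3 of the 12 fits that leave out 1 library, those without shRNA-NC medium replicate 1, shRNA-*Ddx5* medium replicate 2 and shRNA-NC cytokines replicate 2, and its adjusted p ranged from 0.014 to 0.11 over those 12. The direction was the same in all of them. *Tlr4* (gene 21898) lies on the plus strand at chr4:66745788-66765338 in GRCm39.

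*Cd14* (gene 12475), the co-receptor that hands lipopolysaccharide to TLR4, rose with the cytokines in both lines. It was at 4.03, 3.59 and 4.01 FPKM in shRNA-NC medium and at 5.16, 3.53 and 4.18 in shRNA-*Ddx5* medium. With cytokines it was at 6.92, 8.32 and 6.28 FPKM in shRNA-NC cells and at 9.36, 9.24 and 9.90 in shRNA-*Ddx5* cells. The groups in medium overlapped, those with cytokines lay above them, and the knockdown cells lay above the control cells with cytokines. The rise was 0.74 ± 0.12 in shRNA-NC cells (1.85-fold in the means, limma adjusted p = 0.00076) and 1.00 ± 0.12 in shRNA-*Ddx5* cells (2.21-fold, limma adjusted p = 7.8e-05). The interaction was 0.26, with an interval from -0.11 to 0.63 (limma adjusted p = 0.39).

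The knockdown difference of *Cd14* with cytokines was 0.37 ± 0.12 (limma adjusted p = 0.026), and 0.11 in medium, with an interval from -0.15 to 0.37. The call with cytokines did not hold in every alternative. It was lost in 5 of the 12 fits that leave out 1 library, those without shRNA-NC cytokines replicate 1 or 3 and without any 1 of the 3 shRNA-*Ddx5* cytokines libraries, where the difference was 0.29 to 0.39. It was also lost with no filter (limma adjusted p = 0.054) and when the values were scaled to the fragments on genes (0.32, limma adjusted p = 0.053). The adjusted p ran from 0.011 to 0.10 over 21 alternatives.

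**Figure D3:**
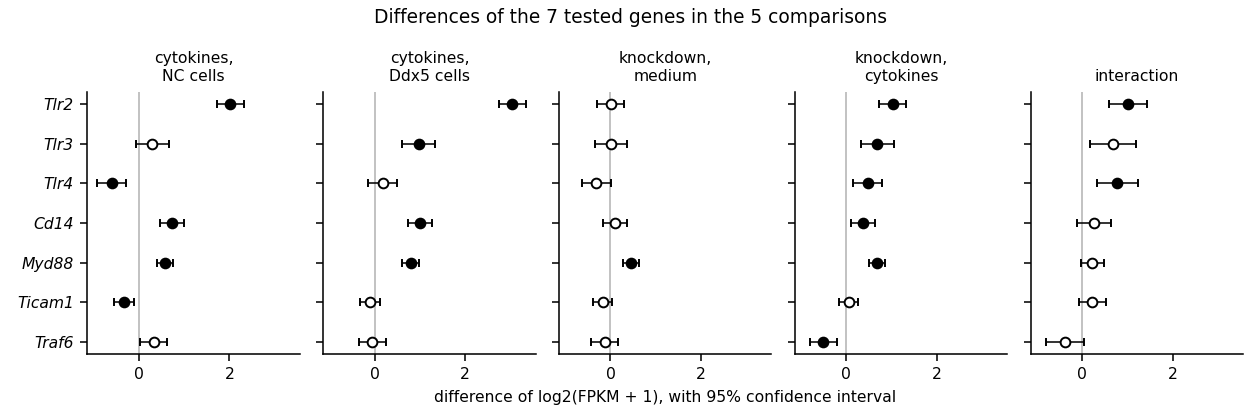
Differences of log2(FPKM + 1) with 95% confidence intervals (x axis) for the 7 tested genes (rows) in the 5 comparisons (panels), filled where the limma adjusted p is under 0.05. In the panel of the knockdown in medium only Myd88 is filled, at 0.46, and with cytokines only Ticam1 is open, at 0.05.

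*Myd88*, the shared adaptor of these receptors and of the IL-1 receptor, was the gene of the family that rose with the knockdown in both media. It was at 16.4, 18.1 and 17.5 FPKM in shRNA-NC medium and at 25.2, 23.4 and 23.9 in shRNA-*Ddx5* medium. With cytokines it was at 26.1, 27.8 and 24.6 FPKM in shRNA-NC cells and at 42.0, 46.5 and 39.3 in shRNA-*Ddx5* cells. Within each medium the lines did not overlap, and the knockdown cells in medium overlapped the control cells with cytokines. The knockdown difference was 0.46 ± 0.08 in medium (1.40-fold, limma adjusted p = 0.00081) and 0.68 ± 0.08 with cytokines (1.63-fold, limma adjusted p = 5.6e-05). The cytokines raised it by 0.57 ± 0.08 in shRNA-NC cells (limma adjusted p = 0.00031) and by 0.79 ± 0.08 in shRNA-*Ddx5* cells (limma adjusted p = 2.1e-05). The interaction was 0.22, with an interval from -0.03 to 0.47 (limma adjusted p = 0.27). All 4 differences stayed past the threshold in each of the 21 alternatives.

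*Myd88* (gene 17874) lies on the minus strand at chr9:119165000-119169084 in GRCm39. Its upstream window had no κB match but held a match to the core of the interferon-stimulated response element, a pair of GAAA runs 2 bases apart, which occurs in 2.98% of all windows on either strand. The 30 bases at chr9:119169105-119169134 run from 50 to 21 bases before the RefSeq start and lie in a longer *Myd88* exon in GENCODE. They are shown because *Myd88* rose in all 4 comparisons of 2 groups, and capitals mark the match.
Myd88 upstream: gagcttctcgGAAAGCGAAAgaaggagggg
The window also held TATAAA on each strand, at overlapping positions. Of the other windows searched, those of *Ticam1*, *Traf6*, *Ikbke* and *Tlr1* held no match to the κB, AP-1 (TGANTCA), response element or TATAAA letters, and *Tlr6* held matches to the response element and to TATAAA. AP-1 letters occur in 6.75% and TATAAA in 12.4% of all windows. For *Tlr1* and *Tlr6* the table gives 2 start sites each. The *Tlr6* windows (chr5:65116510-65116759 and chr5:65117392-65117641) lie within the gene coordinates given here. So do a *Tlr1* window (chr5:65090043-65090292) and that of *Tlr3* (chr8:45863418-45863667), so these are upstream of a RefSeq start only.

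*Ticam1* (gene 106759, chr17:56576462-56583767, minus strand), which encodes TRIF, had the narrowest range of group means of the 7 tested genes. It was at 7.22, 8.28 and 6.28 FPKM in shRNA-NC medium, at 6.62, 6.01 and 6.31 in shRNA-*Ddx5* medium, at 5.14, 5.88 and 5.70 in shRNA-NC cytokines and at 6.24, 5.58 and 5.63 in shRNA-*Ddx5* cytokines. The control libraries with cytokines lay below those of both lines in medium. Groups that were neighbours in the order of their means overlapped. The cytokines lowered it in shRNA-NC cells by -0.32 ± 0.10 (limma adjusted p = 0.023). That call was lost without shRNA-NC medium replicate 1 (limma adjusted p = 0.052) or 2 (0.098), without shRNA-NC cytokines replicate 1 (0.069), and in a fit of only the 6 libraries compared (0.083), in a range of 0.0074 to 0.098. With cytokines the knockdown difference was 0.05, with an interval from -0.16 to 0.26, and in medium -0.17, with an interval from -0.38 to 0.04. The latter passed the threshold without shRNA-NC medium replicate 3 (-0.26, limma adjusted p = 0.042).

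*Traf6* (gene 22034, chr2:101508765-101532013, plus strand) was the gene of the family that the knockdown lowered with cytokines. It was at 11.0, 7.36 and 8.13 FPKM in shRNA-NC cytokines and at 6.05, 5.67 and 5.79 in shRNA-*Ddx5* cytokines, without overlap. In medium it was at 6.28, 6.43 and 7.58 FPKM in shRNA-NC cells and at 5.17, 6.61 and 6.60 in shRNA-*Ddx5* cells, which overlapped. The difference with cytokines was -0.51 ± 0.13, a mean at 66.1% of control (limma adjusted p = 0.0098). Replicate 1 of shRNA-NC cytokines was the highest of all 12 libraries, and the difference stayed past the threshold in each fit that leaves out 1 library, with values from -0.62 to -0.35. In shRNA-NC cells the cytokine difference was 0.33 (limma adjusted p = 0.083) and passed only without shRNA-NC cytokines replicate 2 (0.44, limma adjusted p = 0.038). In shRNA-*Ddx5* cells it was -0.05, with an interval from -0.35 to 0.24. The interaction was -0.38, with an interval from -0.80 to 0.04 (limma adjusted p = 0.26).

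*Ikbke* (gene 56489, chr1:131182337-131207339, minus strand), an inducible kinase related to the IκB kinases, was detected at a low level. It had 11, 8 and 13 fragments in shRNA-NC medium, 1, 8 and 0 in shRNA-*Ddx5* medium, 9, 32 and 11 in shRNA-NC cytokines, and 53, 59 and 45 in shRNA-*Ddx5* cytokines. The knockdown libraries with cytokines lay above the other 9. Their mean was 0.721 FPKM, 3.45-fold that of the control cells with cytokines (0.209 FPKM). An exact permutation test of 3 against 3 libraries gave p = 0.1, the smallest it can give. In the fit with no filter over 27209 genes, the knockdown difference with cytokines was 0.51 (limma adjusted p = 0.0014), the cytokine difference in shRNA-*Ddx5* cells was 0.73 (limma adjusted p = 0.00021) and the interaction was 0.64 (limma adjusted p = 0.015). In that fit the knockdown difference in medium was -0.13 (limma adjusted p = 0.35). The gene overlaps the non-coding *Gm28913* and *Gm51644* on the other strand, which had 51 and 60 fragments over all 12 libraries.

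By level, *Myd88* and *Tlr2* were the highest of the family in every group. In shRNA-NC medium *Myd88* (17.3 ± 0.861 FPKM, SD, n = 3) and *Tlr2* (13.6 ± 3.10) were followed by *Ticam1* (7.26 ± 1.00), *Traf6* (6.76 ± 0.712), *Cd14* (3.88 ± 0.249), *Tlr4* (2.99 ± 0.556) and *Tlr3* (2.26 ± 0.337). With cytokines *Tlr2* took the highest place, at 57.7 ± 4.96 FPKM in shRNA-NC and 118 ± 1.75 in shRNA-*Ddx5* cells, against 26.2 ± 1.62 and 42.6 ± 3.65 for *Myd88*. *Tlr4* was the lowest of the 7 in every group except shRNA-NC medium.

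The other genes of the pathway were counted in 6 lists of 70 genes, of which 49 passed the filter. Of the remaining receptors, *Tlr5*, *Tlr7*, *Tlr8*, *Tlr9*, *Tlr11*, *Tlr12* and *Tlr13*, none did. *Tlr8*, *Tlr11* and *Tlr12* were listed at 0 in all 12 libraries, and *Tlr7*, the highest of the rest, had 26 fragments in all. Past the threshold were 23 genes higher and 4 lower for the cytokines in shRNA-NC cells, 27 and 1 in shRNA-*Ddx5* cells, 8 and 15 for the knockdown in medium, 17 and 12 for the knockdown with cytokines, and 10 and 1 for the interaction, each of 49. In either direction these are 55.1%, 57.1%, 46.9%, 59.2% and 22.4% of the tested genes of the lists, beside 33.8%, 27%, 47%, 45.6% and 8.21% of all tested genes. For the knockdown in medium the share was that of all genes, and the lists were not tested against other genes. The counts include *Lbp*, *Irf5* and *Fos*, which reached an FPKM of 1 in the libraries of 1 group only. A difference from that group was a condition of their being tested, and their values are given as a description. *Il6*, *Isg15*, *Irf7* and *Map3k8* reached it only with cytokines, and had at most 0.825, 0.563, 0.880 and 0.643 FPKM in any library in medium. A higher level with cytokines was a condition of their being tested, so their cytokine differences are a description too.

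**Figure D4:**
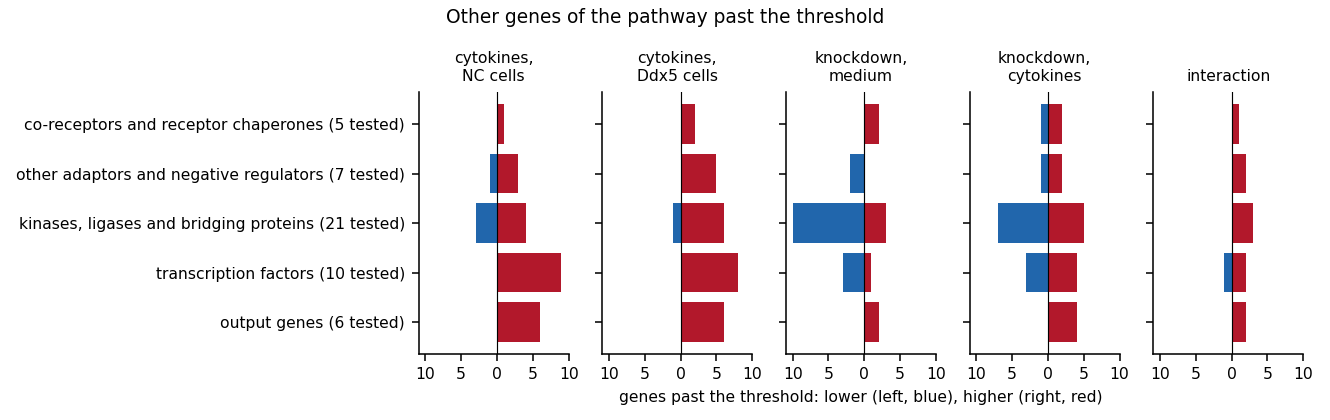
Number of genes past the limma threshold (x axis), higher to the right in red and lower to the left in blue, in 5 lists of other genes of the pathway (rows) and 5 comparisons (panels). The kinases, ligases and bridging proteins have 10 of 21 lower with the knockdown in medium, beside 21.7% of all tested genes. The 6 tested output genes are all higher with cytokines in both lines, but Il6 and Isg15 passed the filter only through libraries with cytokines.

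Among co-receptors and receptor chaperones, 2 of 5 tested genes rose and 1 fell with the knockdown under cytokines (median log2 difference of the list 0.26). Over all tested genes 23.5% rose and 22.1% fell in this comparison. *Lbp*, which encodes the lipopolysaccharide-binding protein, was at 1.58 to 1.84 FPKM in the shRNA-*Ddx5* cytokines libraries and at most 0.254 FPKM in any other. *Lrrc59*, a membrane protein of the endoplasmic reticulum, rose by 0.57 (limma adjusted p = 0.00058), and by 0.62 with the knockdown in medium (limma adjusted p = 0.00036). *Ly96*, which encodes the TLR4 partner MD-2, fell from 7.38 to 4.26 FPKM (-0.65, limma adjusted p = 0.032), while *Tlr4* itself was higher.

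Among other adaptors and negative regulators, 2 of 7 rose and 1 fell in the same comparison (median 0.01). That is 42.9% in either direction, near the 45.6% of all tested genes. *Tnip1*, which encodes a ubiquitin-binding inhibitor of NF-κB, was at means of 9.85, 6.77, 19.8 and 44.9 FPKM in shRNA-NC medium, shRNA-*Ddx5* medium, shRNA-NC cytokines and shRNA-*Ddx5* cytokines. The knockdown lowered it by -0.49 in medium (limma adjusted p = 0.017) and raised it by 1.16 with cytokines (limma adjusted p = 8.9e-05), and the interaction was 1.66 (limma adjusted p = 0.00078). The deubiquitinase gene *Cyld* fell by -0.46 with cytokines in shRNA-NC cells (limma adjusted p = 0.0015) and rose by 0.27 in shRNA-*Ddx5* cells (limma adjusted p = 0.033), with an interaction of 0.72 (limma adjusted p = 0.0035). *Tnfaip3*, which encodes the inhibitor A20, rose by 4.78 and 5.06 with cytokines in the 2 lines (limma adjusted p = 6.5e-11 and 4.7e-11).

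The kinases, ligases and bridging proteins were lower in 10 and higher in 3 of 21 tested genes with the knockdown in medium (median -0.22), beside 21.7% lower and 25.3% higher over all tested genes. With cytokines they were lower in 7 and higher in 5 (median 0.02), beside 22.1% and 23.5%. In medium the falls included *Peli3*, a ubiquitin ligase gene (-1.02, limma adjusted p = 0.00014), *Ikbkb*, which encodes the kinase IKKβ (-0.59, limma adjusted p = 0.00084), and *Tab3* (-0.55, limma adjusted p = 0.027). With cytokines *Peli3* was higher in the knockdown cells instead (0.48, limma adjusted p = 0.015), and its interaction was 1.496 (limma adjusted p = 0.00088). *Ube2n*, a ubiquitin-conjugating enzyme gene, rose by 0.65 with the knockdown in medium (limma adjusted p = 0.0033). With cytokines the ubiquitin ligase genes *Peli1* and *Peli2* were lower by -0.86 and -1.01 (limma adjusted p = 0.0017 and 2.3e-05). In the same comparison *Map3k8*, a kinase gene, was higher by 0.91 (limma adjusted p = 0.00033). *Tbk1*, which encodes the partner kinase of IKKε, had an interaction of 0.77 (limma adjusted p = 0.0089).

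Of 10 tested transcription factors, 9 rose with cytokines in shRNA-NC cells and 8 in shRNA-*Ddx5* cells (median 1.17 and 1.39). Over all tested genes 18.6% and 13.5% rose. With the knockdown under cytokines 4 transcription factors rose and 3 fell (median -0.08), beside 23.5% and 22.1% of all tested genes. *Irf7* and *Irf1*, regulators of interferon genes, rose by 2.35 and 1.23 (limma adjusted p = 1.5e-06 and 2.1e-05). The AP-1 gene *Jun* and the related *Atf3* fell by -1.41 and -1.01 (limma adjusted p = 2.6e-06 and 7.3e-05). The knockdown lowered both in medium too, by -1.43 and -1.01 (limma adjusted p = 2.5e-06 and 7.5e-05). *Fos*, another AP-1 gene, was at 1.44 to 2.64 FPKM in shRNA-NC cytokines and at most 0.745 FPKM in any other library. All 6 tested output genes rose with cytokines in both lines (median 4.41 and 4.50), beside 18.6% and 13.5% of all tested genes. For *Il6* and *Isg15* the direction was set by the filter, since they reached an FPKM of 1 only with cytokines. With the knockdown under cytokines 4 of 6 output genes rose (median 1.09), beside 23.5% of all tested genes. These were *Isg15* (1.83, limma adjusted p = 4.9e-06), *Il6* (1.79, limma adjusted p = 1.8e-05), *Ccl5* (1.34, limma adjusted p = 0.0018) and *Cxcl10* (0.85, limma adjusted p = 0.0054). *Tnf*, *Il1b* and *Ifnb1*, which code for secreted products of the pathway, had at most 2 fragments each over the 12 libraries.

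The genes whose pattern over the 12 libraries was most like that of a family member were sought for the 3 members with the widest range of group means, by the root mean square difference of centred log2(FPKM + 1). For *Tlr2* they were *Sod2*, a mitochondrial superoxide dismutase gene (0.214), *Prss23*, a serine protease gene (0.218), and *Gbp7*, a guanylate-binding protein gene (0.267). *Sod2* was at means of 19.6, 18.5, 60.1 and 129 FPKM in shRNA-NC medium, shRNA-*Ddx5* medium, shRNA-NC cytokines and shRNA-*Ddx5* cytokines, beside 13.6, 13.6, 57.7 and 118 for *Tlr2*. For *Cd14* they were *Ext1* (0.0792), *Rdh8* (0.127) and *Pgs1* (0.131). For *Myd88* they were *Gm6644* (0.0969), *Mif-ps* (0.111) and *Amotl2* (0.114), where *Mif-ps* is named as a pseudogene and can share reads with its parent gene. *Gm6644* was at means of 0.128, 0.378, 0.644 and 1.64 FPKM in the same order of groups, beside 17.3, 24.2, 26.2 and 42.6 for *Myd88*. *Rdh8* was at 0.122, 0.133, 0.921 and 1.69, and *Gbp7* at 0.510, 0.418, 4.01 and 8.53. The scale shrinks differences at such low levels, so likeness on it is not likeness of fold differences. By their means these genes reached an FPKM of 1 only with cytokines, so their likeness is a description.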

How the data were processed

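The 12 libraries were grouped by their labels. The authors deposited FPKM per gene with NCBI gene numbers, lengths and coordinates, which match GRCm39. The submitters' processing notes name mm10, HISAT2 2.0.5 and featureCounts 1.5.0-p3, with no strand setting. FPKM times gene length gave whole multiples of 1 step in each library (100% of values above 0, tolerance 0.01), that is, the fragments. The study tested counts with a count model. Here limma 3.58.1 (R 4.3.3, lmFit and eBayes with trend) was run on log2(FPKM + 1) with 4 group means, for genes that reached an FPKM of 1 in 3 or more libraries. It was also run on simulated counts with the same spread for all genes and groups. The real libraries differ from that, so the simulation does not test the fit for these data. Benjamini-Hochberg adjustment covered 12368 genes. Replicates are described as biologically independent. The shRNA-*Ddx5* cytokines libraries differed less from each other than those of the other groups did. Pairs of replicates had a chi-square of fragments per degree of freedom of 3.98 to 6.01 there and 7.56 to 34.9 elsewhere. The fit used 1 spread per gene for all groups. Upstream windows of 250 bases came from RefSeq (GRCm38.p6) for 8 of the 10 genes. Those of *Tlr4* and *Cd14* were not used here. Pathway genes are named where they are past the threshold and among the 4 largest differences of their list in that comparison, or listed at 0. *Tlr7*, *Tnf*, *Il1b*, *Ifnb1*, *Fos*, *Irf5*, *Peli3* with cytokines, the overlapping genes and the markers were singled out after their values were seen. The genes and lists were chosen with earlier results of these data known. Alternatives were another pseudocount (0.1), 2 other filters, 2 other scalings, voom weights, eBayes without trend, only the 6 libraries compared, a replicate block and leaving out each library.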

Additional observations from a re-analysis of the deposited data

Results flagged for a closer look

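2 results of the family differed between the shRNA-*Ddx5* and shRNA-NC lines in a test of the difference itself. For *Tlr2* the cytokine difference was 3.04 in shRNA-*Ddx5* and 2.02 in shRNA-NC cells, and the interaction of 1.01 had a limma adjusted p of 0.0087. For *Tlr4* the cytokine difference was 0.18 in shRNA-*Ddx5* and -0.60 in shRNA-NC cells, and the interaction of 0.78 had a limma adjusted p of 0.040, past the threshold in 9 of 20 alternative settings.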

How the results depend on the processing

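Of 728 values of the 7 tested genes under alternatives, 690 kept their direction and side of the threshold, 25 lost and 4 gained the call, and 9 changed direction. None of these 9 was past the threshold, and all were of the knockdown in medium. *Tlr2* was at -0.013 with quantile normalization, -0.085 scaled to fragments on genes, -0.10 and -0.05 without shRNA-NC medium replicate 1 or 2 and -0.09 without shRNA-*Ddx5* medium replicate 3 (-0.10 to 0.17 over the 12 libraries left out in turn). *Tlr3* was at -0.054 scaled to fragments, -0.07 without shRNA-NC medium replicate 1 and -0.17 without shRNA-*Ddx5* medium replicate 2 (-0.17 to 0.20). *Cd14* was at -0.0079 without shRNA-*Ddx5* medium replicate 1 (-0.0079 to 0.21). Leaving out 1 library gave 1 to 3 of the 7 tested genes past the threshold for the interaction, 1 to 2 for the knockdown in medium, 4 to 6 for the knockdown with cytokines and 4 to 6 for the cytokines in shRNA-NC cells. Over all genes the interaction counted 559 to 1123 instead of 1016. With no filter the interaction held for 1 of these 7, *Tlr2*, and also for *Ikbke*, which is tested in that fit alone. The cause was not tested.

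Taken over all 4 groups, replicate numbers did not pair the libraries: 4 of 18 same-numbered pairs correlated above 0.1, with a mean r of -0.045. No library correlated best with its own number in each of the other 3 groups. Between the 2 groups in medium, same-numbered pairs had r of 0.448, 0.0425 and 0.313, and other pairs -0.378 to 0.19. Between the 2 shRNA-NC groups, same-numbered pairs had r of -0.368, 0.123 and -0.29. With the replicate block the interaction counted 687 genes and 1 of the 7, since *Tlr4* had an adjusted p of 0.064, and no other call of the family changed.

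Scaling moved the split of calls over all genes. For the cytokines in shRNA-NC cells 2303 were higher and 1878 lower, against 1815 and 2368 with quantile normalization and 1850 and 2529 scaled to fragments. In shRNA-*Ddx5* cells it was 1671 and 1673, against 1398 and 2183 with quantile normalization. For the knockdown in medium it was 3131 and 2686, against 2480 and 3353 scaled to fragments. Depth limits *Tlr1*, *Tlr6* and *Ikbke*.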
